A study of Homo sapiens with 8 samples.

Results

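The genes described here are 49 genes of the G2/M transition, the mitotic spindle and cell division, chosen by symbol from a fixed list. The list was drawn up with earlier results of these data known. All 49 were found among the 24462 genes of the count table, each on 1 row, and all 49 were among the 12577 genes that passed the filter on low counts. RNA was sequenced from the human hepatocellular carcinoma line HepG2 in 2 groups of 4 libraries. Cells labelled mock (libraries mock 1 to 4) were compared with cells overexpressing EDN1 (libraries EDN1 1 to 4), both grown in the same serum-containing medium with no other treatment. The EDN1 product is processed to endothelin-1, a peptide that constricts blood vessels. The labels do not say what vector or promoter drove it, or whether the cells were 1 clone.

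Entry into mitosis is driven by the kinase CDK1 bound to cyclin B, which the phosphatases of the CDC25 family switch on. Aurora and Polo-like kinases and kinesin motors then build the spindle, and the checkpoint proteins hold the anaphase-promoting complex inactive until every chromosome is attached. That complex, a ubiquitin ligase, then marks securin and the cyclins for destruction, and the cell divides. Most of these genes are transcribed late in the cycle. The MuvB proteins act at their promoters through a sequence called the CHR element, as a repressor with the DREAM complex in resting cells and as an activator with B-MYB and FOXM1 in G2. The factor NF-Y acts nearby at CCAAT boxes. In liver tissue, levels of these genes follow the share of dividing cells, and in a growing cell line the share of cells late in the cycle.

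Promoters were searched for both elements to describe the list, and no motif was set against the levels of the libraries. The window ran from 250 bases before to 50 after each transcription start in RefSeq (GRCh38.p14), and 42 of the 49 genes had an entry. The CCAAT box (CCAAT, either strand) stood in at least 1 window of 35 of the 42 genes (83.3%), against 39.7% of the 27305 genes with an entry. Those 27305 were not limited to the 12577 genes that passed the filter on low counts. A CHR element (TTTGAA, either strand) stood in 30 of 42 (71.4%), against 18.2% of all genes. Both were present in 25 of 42 (59.5%), against 7.26%. Among single windows of the same 300 bases, 34.6% of all 35116 held a CCAAT box and 15.2% a CHR element. Neither motif contains the other, though neighbouring matches can share an end base. CENPE and KIF2C, both kinesin genes, held neither.

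The 200 bases before the start of 5 of these genes are shown with CCAAT boxes and CHR elements in capitals. CCNB2 and CDC20 followed the pattern of most members across the libraries, described below. PLK1 and BUB1 were 2 of the genes that separated the libraries in another way, and NEK2 was the gene whose groups did not overlap. They lie at chr15:59104946-59105145 (plus strand), chr1:43358781-43358980 (plus strand), chr16:23678689-23678888 (plus strand), chr2:110678064-110678263 (minus strand) and chr1:211675622-211675821 (minus strand) in GRCh38.p14, each written 5′ to 3′ on the strand of its gene.

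CCNB2: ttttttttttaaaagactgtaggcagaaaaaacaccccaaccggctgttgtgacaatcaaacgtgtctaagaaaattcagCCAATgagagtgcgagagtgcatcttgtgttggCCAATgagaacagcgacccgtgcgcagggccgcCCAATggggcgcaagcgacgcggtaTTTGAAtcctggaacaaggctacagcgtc

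CDC20: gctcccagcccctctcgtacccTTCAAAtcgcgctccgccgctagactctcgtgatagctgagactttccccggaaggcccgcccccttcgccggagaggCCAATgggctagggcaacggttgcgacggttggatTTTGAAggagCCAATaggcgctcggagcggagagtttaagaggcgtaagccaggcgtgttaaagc

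PLK1: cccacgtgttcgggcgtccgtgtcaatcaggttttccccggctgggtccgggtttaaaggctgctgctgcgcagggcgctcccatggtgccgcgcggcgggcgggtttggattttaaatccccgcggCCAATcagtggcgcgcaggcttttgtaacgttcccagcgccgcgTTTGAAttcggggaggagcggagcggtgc

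BUB1: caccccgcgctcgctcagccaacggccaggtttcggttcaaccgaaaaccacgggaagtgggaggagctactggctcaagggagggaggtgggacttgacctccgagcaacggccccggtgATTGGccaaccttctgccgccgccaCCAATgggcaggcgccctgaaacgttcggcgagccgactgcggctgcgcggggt

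NEK2: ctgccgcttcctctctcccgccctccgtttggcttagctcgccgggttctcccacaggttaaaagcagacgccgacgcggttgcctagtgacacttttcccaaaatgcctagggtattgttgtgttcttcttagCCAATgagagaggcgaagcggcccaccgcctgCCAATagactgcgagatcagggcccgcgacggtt

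In CCNB2 the CCAAT boxes began 244 (outside the printed stretch), 120, 87 and 54 bases before the start and the CHR element 29 bases before it. PLK1 had 1 CCAAT box, 73 bases before the start, and a CHR element in the same place as in CCNB2, 29 bases before it. CDC20 had CCAAT boxes at 100 and 55 bases and CHR letters at 178 and 65 bases before the start. BUB1 and NEK2 held CCAAT boxes, at 79 and 54 bases and at 66 and 34 bases before the start, and no TTTGAA in the window. A match of letters is a description of the sequence and not evidence of binding.

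Total counts ranged from 8409173 to 14932385 per library. EDN1 had 9 to 29 counts in the mock libraries and 2284 to 4764 in the EDN1 libraries, so every library matched its label. It was also the 1 gene past the threshold among the 12577 tested. The hepatocyte and HepG2 markers were all present, with 157 to 68944 counts for the 12 genes. No library held more than 9 counts of any of the 5 endothelial markers or of 5 of the 7 fibroblast markers. COL1A1 and PDGFRB, the remaining fibroblast markers, had 2 to 39 and 13 to 70 counts. PTPRC and CD3E, which define leukocytes and T cells, had at most 1 count, while LYZ had 4193 to 9943 and made up most of the 7 blood and immune markers. Mock 4, EDN1 3 and EDN1 4 stood apart from the other 5 libraries over many genes, with no label that gives a reason. They are called the second library set here, and the other 5 the first. For 25 of the 49 members another RefSeq gene overlaps the gene's span, and 15 have a named pseudogene copy, so some reads may belong to other genes. The overlaps were counted on either strand and include genes of small RNAs, and shared exons were not examined.

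Over the 49 genes no difference between the groups passed the test. Of the 49, 0 were higher (0.00795% of all genes tested were) and 0 were lower (0% of all genes), with adjusted p = 1 for each (edgeR, quasi-likelihood, Benjamini-Hochberg). DESeq2 and limma voom also called 0 of them. At an unadjusted p under 0.05 there was 1 of 49, UBE2C, higher in EDN1 overexpression, against 2.03% of all genes on the higher side, 0.827% on the lower side and 2.85% in all. The 4 EDN1 libraries all lay above the 4 mock libraries in 1 of 49, NEK2, and below them in 0, against 1.38% and 0.668% of all genes (2.04% in all). Each of these shares was near that of all genes.

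Most fold changes were small and positive. The log2 fold change was above 0 in 37 of 49 genes (75.5%), against 50.3% of all genes tested, and below 0 in 12 (24.5%), against 49.7%. Its median was 0.15, against 0.00099 for all genes. The range ran from -0.32 for CDC25C to 0.66 for UBE2C. The count above 0 moved with single libraries. Without mock 2 the number above 0 was 22 of 49 and the median was -0.01. Without EDN1 4 it was 43 of 49 with a median of 0.25, and without EDN1 3 it was 31 of 49 with a median of 0.04. For 41 of the 49 genes (83.7%) the whole 95% interval fell inside a 2-fold change up or down, against 79.4% of all genes, so larger differences lay outside the intervals of these 41.

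**Figure D1:**
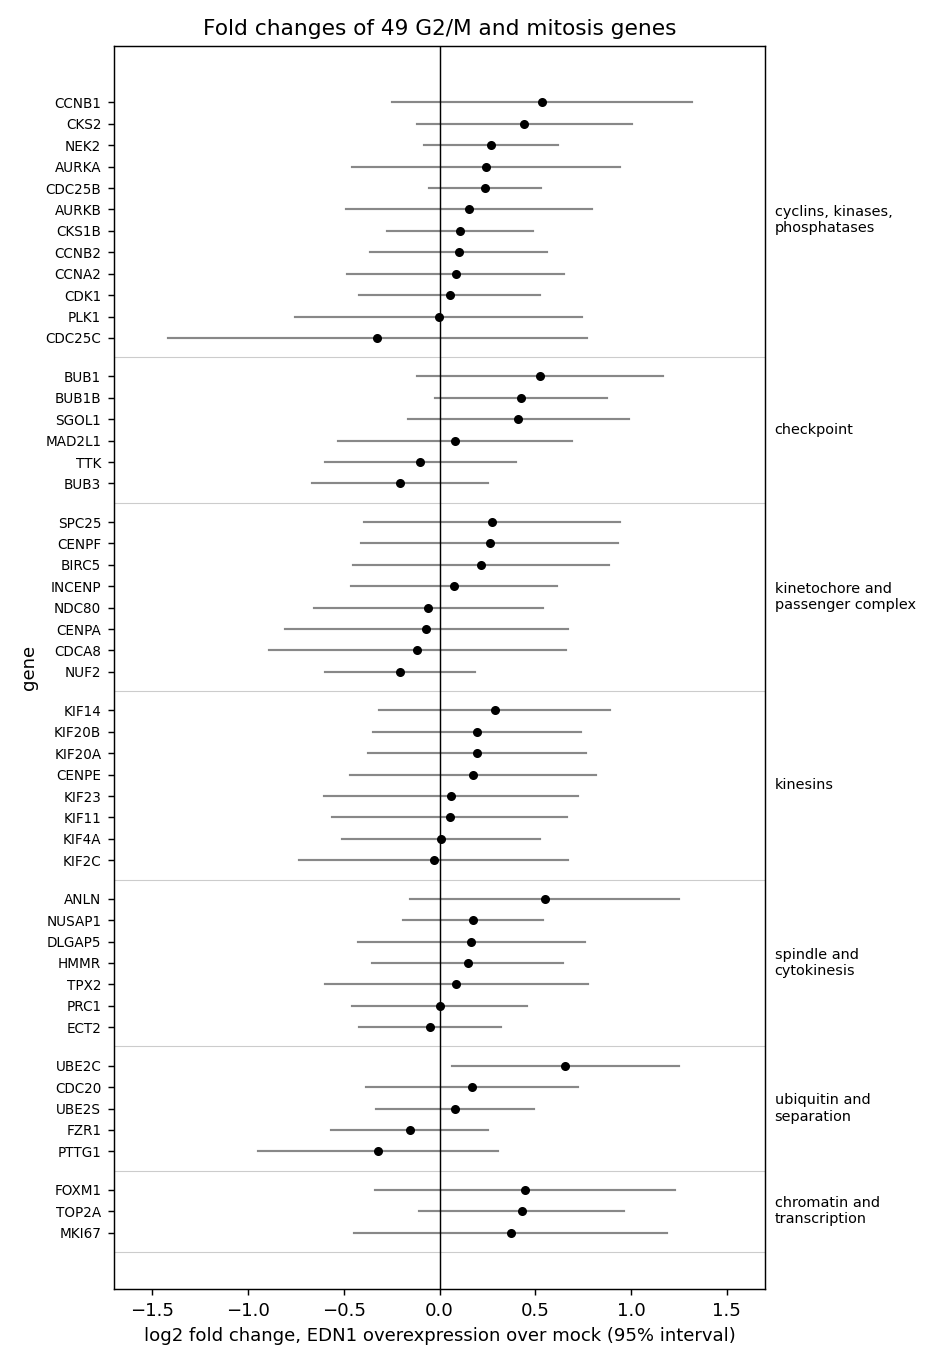
Log2 fold change of each of the 49 genes, EDN1 overexpression over mock (point), with its 95% interval (line), grouped by role and ordered within each role. The intervals of 48 genes include 0, and that of UBE2C runs from 0.06 to 1.25 before adjustment over all genes.

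Among the cyclins, kinases and phosphatases, 10 of 12 genes had a fold change above 0, with a median log2 value of 0.13, and 0 passed the test. Without mock 2 the number was 5 of 12 and the median -0.029, and without EDN1 3 the median was 0.058. CCNB1, the cyclin that activates CDK1 at mitotic entry, stood at 37.8, 17.05, 33.4 and 24.6 in mock 1 to 4, in CPM (counts scaled to a common library total). In EDN1 1 to 4 it stood at 55.1, 33.5, 56.6 and 18.1 CPM. EDN1 1 and EDN1 3 lay above all mock libraries and EDN1 2 and EDN1 4 within their range (log2 fold change 0.53, SE 0.35, 95% interval -0.25 to 1.32). CDK1, its kinase partner, had 103.5, 58.5, 117.2 and 101.2 CPM in mock libraries and 92.3, 90.7, 122.7 and 89.3 CPM in EDN1 libraries. Mock 2 was the lowest of the 8 and EDN1 3 the highest, while the other 3 mock libraries all lay above the other 3 EDN1 libraries (log2 fold change 0.054, SE 0.21). The value was -0.12 without mock 2.

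NEK2, a centrosome kinase that helps separate the spindle poles, varied least among the 49 genes. Its mock libraries held 11.2, 11.1, 11.8 and 11.7 CPM and its EDN1 libraries 13.01, 14.2, 15.7 and 12.4 CPM. The groups did not overlap, but the gap was small. The mock mean was 11.5 ± 0.375 CPM and the EDN1 mean 13.8 ± 1.47 CPM (SD, n = 4 each), and the interval of the log2 fold change of 0.27 ran from -0.081 to 0.62. NEK2 has 4 named pseudogenes, and reads could be split between the copies. CDC25B, a phosphatase that starts CDK1 activation, was also steady, at 98.6, 105.9, 112.7 and 122.6 CPM in mock libraries against 123.7, 119.8, 141.5 and 132.9 CPM in EDN1 libraries. Of its EDN1 libraries 1, EDN1 2, lay below the highest mock library (log2 fold change 0.24, SE 0.13, interval -0.056 to 0.53).

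CKS2, a small protein that binds CDK1 and helps it reach its substrates, had a mock mean of 20.2 ± 5.84 CPM and an EDN1 mean of 27.5 ± 7.90 CPM (SD, n = 4 each). Its highest value was 38.6 CPM in EDN1 3 and its lowest 13.7 CPM in mock 2. The log2 value of 0.44 (SE 0.25) was 0.23 without EDN1 3. CKS1B, its close relative, ranged from 204.5 CPM in mock 2 to 347.9 CPM in EDN1 3, and has 7 named pseudogenes. AURKB, the kinase of the chromosomal passenger complex, had 141.2, 61.4, 161.7 and 102.0 CPM in mock libraries and 138.0, 132.7, 162.8 and 85.7 CPM in EDN1 libraries. Its groups overlapped (log2 fold change 0.15, SE 0.29), and the value was -0.057 without mock 2.

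PLK1, a kinase needed for spindle assembly and division, had nearly equal group means, 105.0 ± 42.3 CPM for mock and 104.7 ± 38.4 CPM for EDN1 (SD, n = 4 each). Its log2 value was -0.0038 (SE 0.34, interval -0.75 to 0.75). CDC25C, a phosphatase that activates CDK1 as CDC25B does, had the lowest value of the role, -0.32, and the widest spread of the 49 genes.

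The checkpoint genes had 4 of 6 fold changes above 0, with a median log2 value of 0.25, and 0 passed the test. Without mock 2 it was 3 of 6 with a median of 0.095. BUB1B, part of the complex that blocks the anaphase-promoting complex, had 15.4, 9.02, 12.4 and 11.8 CPM in mock libraries and 13.4, 17.4, 19.3 and 15.4 CPM in EDN1 libraries. EDN1 2 and EDN1 3 lay above every mock library, EDN1 4 was level with mock 1 and EDN1 1 was below it (log2 fold change 0.42, SE 0.20, interval -0.026 to 0.87). BUB1B shares its span with a read-through transcript of the next gene. BUB1, a checkpoint kinase, had a mock mean of 10.2 ± 2.18 CPM and an EDN1 mean of 14.7 ± 5.84 CPM (SD, n = 4 each). Its log2 value of 0.52 (SE 0.29) was 0.27 without EDN1 3. It was 0.070 in the first library set and 0.63 in the second. SGOL1, which protects the cohesin that holds sister chromatids together, had means of 7.30 ± 1.48 CPM for mock and 9.71 ± 3.02 CPM for EDN1 (SD, n = 4 each; log2 fold change 0.41, SE 0.26). At the other end BUB3, a partner of both BUB1 and BUB1B, had a log2 value of -0.21.

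Kinetochore, centromere and passenger complex genes were split evenly, with 4 of 8 fold changes above 0 and a median log2 value of 0.0094, and 0 passed the test. This split moved with single libraries, to 7 of 8 without mock 1 (median 0.20) and without EDN1 4 (0.15). It was 3 of 8 without mock 4 (-0.071) and without EDN1 1 (-0.070), and 4 of 8 with a median of -0.11 without mock 2. CENPF, a large kinetochore protein that builds up in G2, had 106.9, 44.3, 112.2 and 93.9 CPM in mock libraries and 103.5, 92.7, 158.3 and 73.9 CPM in EDN1 libraries. Mock 2 was the lowest and EDN1 3 the highest of the 8, and the other 6 libraries overlapped. Its log2 value of 0.26 (SE 0.30) was 0.011 without EDN1 3. NUF2 and SPC25 belong to the same complex, which grips the spindle fibre at the kinetochore, and had opposite signs. NUF2 had means of 35.8 ± 5.97 CPM for mock and 31.04 ± 4.82 CPM for EDN1 (SD, n = 4 each; log2 fold change -0.21, SE 0.18). SPC25 had 8.001 ± 2.15 CPM for mock and 9.67 ± 3.33 CPM for EDN1 (SD, n = 4 each; log2 fold change 0.27, SE 0.30). Neither differed between the groups beyond its spread, and the difference between the pair was not tested.

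Of the 8 kinesin genes, which encode motors that move along the spindle, 7 had a fold change above 0, with a median log2 value of 0.12 and 0 past the test. Without mock 2 the number was 3 of 8 with a median of -0.060. It was 4 of 8 without mock 4 (0.057), EDN1 1 (0.020) or EDN1 3 (0.0013). KIF14, a motor of cell division, had means of 9.74 ± 2.99 CPM for mock and 11.9 ± 3.01 CPM for EDN1 (SD, n = 4 each; log2 fold change 0.29, SE 0.27). KIF20A, a motor of the central spindle, was highest in EDN1 1, at 49.5 CPM. Its other EDN1 libraries held 28.02, 31.8 and 22.9 CPM, against 28.1, 23.2, 39.8 and 24.7 CPM in mock libraries. Leaving out EDN1 1 turned its log2 value from 0.20 (SE 0.26) to -0.067. KIF20A overlaps CDC23, a subunit of the anaphase-promoting complex, so reads of the pair may not be separated. KIF20B, a relative, had 57.98, 27.2, 50.7 and 52.2 CPM in mock libraries and 47.7, 46.96, 73.5 and 47.5 CPM in EDN1 libraries (log2 fold change 0.20, SE 0.25). Mock 2 and EDN1 3 were its extremes. KIF2C, which takes apart fibre ends at the centromere, had the lowest log2 value of the role, -0.031. KIF4A has a near-identical copy, KIF4B, which could share its reads.

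Spindle and cytokinesis factors had 6 of 7 fold changes above 0, with a median log2 value of 0.15, and 0 passed the test. Without mock 2 the number was 3 of 7 and the median -0.013, and the median was 0.064 without EDN1 1 and 0.042 without EDN1 3. ANLN, a scaffold of the contractile ring, had 16.5, 8.65, 12.9 and 19.8 CPM in mock libraries and 20.6, 13.4, 33.7 and 17.3 CPM in EDN1 libraries. EDN1 3 stood well above the other 7 libraries, and the log2 value of 0.55 (SE 0.32) was 0.24 without it. NUSAP1, which bundles spindle fibres, was steadier, with means of 30.2 ± 3.43 CPM for mock and 34.1 ± 5.65 CPM for EDN1 (SD, n = 4 each; log2 fold change 0.17, SE 0.17). HMMR, a spindle protein first known as a hyaluronan receptor, had 27.8 ± 7.17 CPM for mock and 30.8 ± 6.34 CPM for EDN1 (SD, n = 4 each; log2 fold change 0.15, SE 0.22), and its value was -0.013 without mock 2. ECT2, which triggers the contractile ring, had the lowest log2 value of the role, -0.051.

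The ubiquitin and separation genes had 3 of 5 fold changes above 0, with a median log2 value of 0.081, and 0 passed the test. Without mock 2 it was 1 of 5 (median -0.035), and without mock 4 it was 2 of 5 (-0.0069). UBE2C, the enzyme that hands ubiquitin to the anaphase-promoting complex, had 39.3, 22.1, 59.7 and 44.4 CPM in mock libraries and 60.3, 68.5, 80.9 and 51.2 CPM in EDN1 libraries. EDN1 1, EDN1 2 and EDN1 3 lay above all mock libraries, and EDN1 4 lay below mock 3. The difference was 1.58-fold (log2 fold change 0.66, SE 0.27, interval 0.063 to 1.25). The log2 value was 0.45 without mock 2 and 0.88 without mock 3. Its adjusted p over all genes was 1 in edgeR. UBE2C has 5 named pseudogenes. UBE2S, the enzyme that lengthens the ubiquitin chains UBE2C starts, had a log2 value of 0.081, and CDC20, the activator of the complex in mitosis, one of 0.17.

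PTTG1 encodes securin, the protein whose destruction lets the chromatids part. Its means were 186.0 ± 60.7 CPM for mock and 148.9 ± 46.02 CPM for EDN1 (SD, n = 4 each; log2 fold change -0.32, SE 0.28). Inside the first library set the value was -0.18, and inside the second 0.034. FZR1, which activates the complex after mitosis, had 21.04 ± 3.21 CPM for mock and 18.9 ± 3.44 CPM for EDN1 (SD, n = 4 each; log2 fold change -0.16, SE 0.18).

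FOXM1, MKI67 and TOP2A had the highest median of any role, a log2 value of 0.43 with 3 of 3 above 0, and again 0 passed. Leaving out mock 2 gave a median of 0.26, leaving out EDN1 1 gave 0.27 and leaving out EDN1 3 gave 0.19. FOXM1, the transcription factor that switches on late cell cycle genes, had 40.03, 17.4, 35.2 and 24.7 CPM in mock libraries and 53.8, 33.6, 54.4 and 18.01 CPM in EDN1 libraries (log2 fold change 0.45, SE 0.35). MKI67, which encodes the proliferation marker Ki-67, had 111.4, 38.2, 84.5 and 66.2 CPM in mock libraries. Its EDN1 libraries held 121.8, 86.7, 135.8 and 44.3 CPM (log2 fold change 0.37, SE 0.37). In both genes EDN1 1 and EDN1 3 exceeded every mock library and EDN1 4 was below all mock libraries but mock 2. TOP2A, the topoisomerase that untangles chromosomes, had 812.4, 548.4, 880.5 and 948.1 CPM in mock libraries and 1011, 826.1, 1570 and 888.6 CPM in EDN1 libraries. EDN1 3 was far above the rest, and the log2 value of 0.43 (SE 0.24) was 0.19 without it. FOXM1 shares its span with RHNO1 and ITFG2, so part of its count may be theirs.

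**Figure D2:**
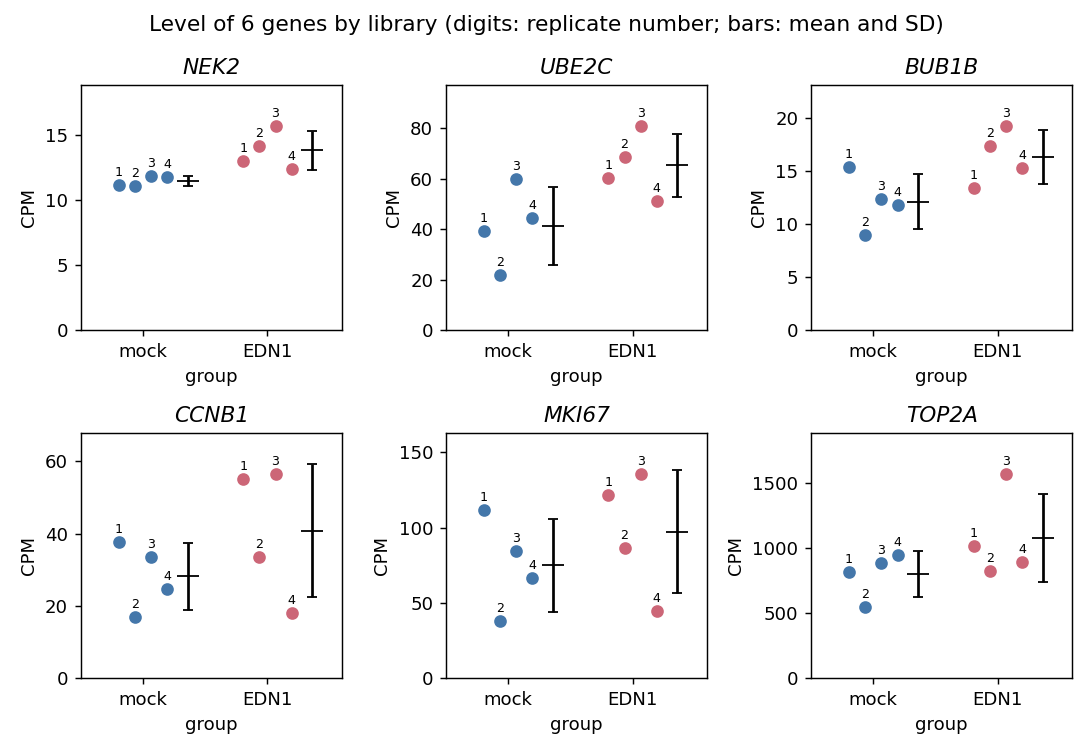
CPM of NEK2, UBE2C, BUB1B, CCNB1, MKI67 and TOP2A in each library (points, numbered by replicate), with the mean and SD of each group of 4. Of these 6 genes, NEK2 shows groups that do not overlap, and in CCNB1 and MKI67 the EDN1 group spans nearly the whole range of the 8 libraries.

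Libraries of the same group spread widely, and the same few libraries were lowest or highest in most members, though the full order differed between genes. Mock 2 was the lowest of the 8 libraries in 34 of 49 genes (69.4%), against 17.9% of all genes tested. EDN1 4 was the lowest in 10 (20.4%), against 17.6%, and among EDN1 libraries it was the lowest in 38 of 49, against 32.6% of all genes. EDN1 3 was the highest of the 8 in 27 (55.1%), against 18.3%. The median centred level of the 49 genes was -0.62 in mock 2, -0.36 in EDN1 4 and -0.19 in mock 4, on the log2 scale. It was 0.24, 0.27, 0.23, 0.080 and 0.36 in mock 1, mock 3, EDN1 1, EDN1 2 and EDN1 3. Each group thus held libraries with high and with low levels of these genes.

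**Figure D3:**
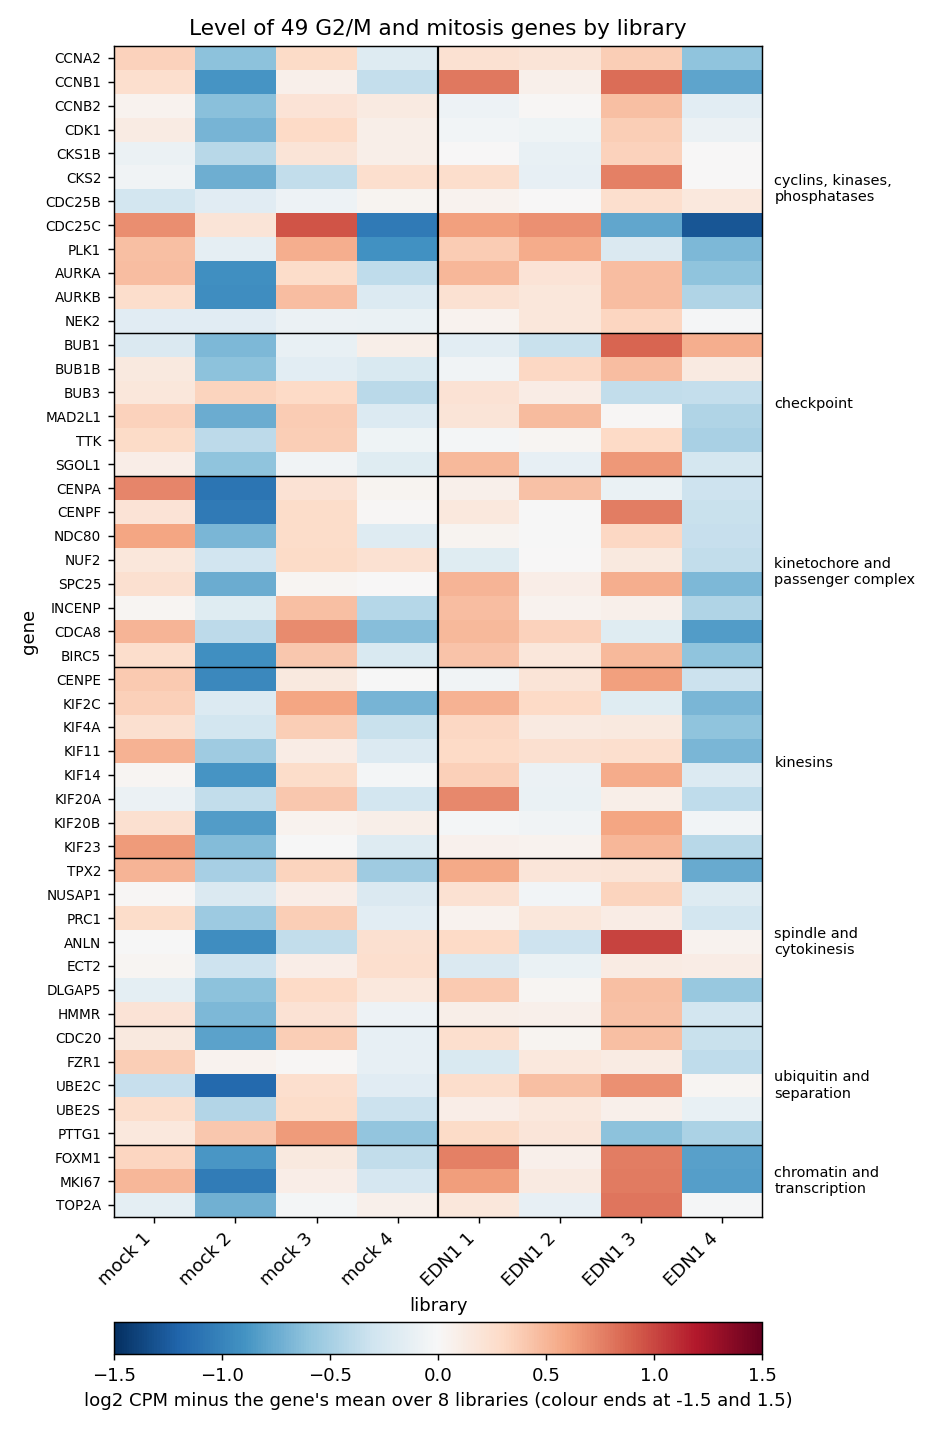
Level of each of the 49 genes (rows, by role) in each library (columns), as log2 CPM minus the gene's mean over the 8 libraries, red above and blue below that mean. Mock 2 is below the mean in 45 of 49 genes and EDN1 4 in 41, while EDN1 3 is above it in 42.

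The low libraries were low in the median of every role. In mock 2 the median centred log2 level lay between -0.87 (FOXM1, MKI67 and TOP2A) and -0.44 (ubiquitin and separation genes), with the kinetochore role at -0.71 and the kinesins at -0.59. In EDN1 4 it lay between -0.82 and -0.28, again lowest for the role of FOXM1, MKI67 and TOP2A. MKI67 showed the size of this spread, running from 38.2 CPM in mock 2 to 135.8 CPM in EDN1 3, a ratio of 3.56. Over the 49 genes that ratio of highest to lowest library ran from 1.41 for NEK2 to 4.76 for CDC25C. Together the 49 genes took 0.257% of the counts in mock 2 and 0.291% in EDN1 4, against 0.4997% in EDN1 3. Mock 2 had the lowest total count, 8409173, and EDN1 4 had 9132441. Mock 3 and EDN1 2 had 8735340 and 8571252, with median centred levels of 0.27 and 0.080. The part of depth in these levels was not tested.

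Marker lists also varied by library. The 12 hepatocyte and HepG2 markers summed to 8549 to 11772 CPM in mock libraries and 6973 to 12541 CPM in EDN1 libraries, with 9708 CPM in mock 2, 12541 CPM in EDN1 4 and 8950 CPM in EDN1 3. The 7 blood and immune markers summed to 410.6 to 808.4 CPM and 371.6 to 828.9 CPM, and were highest in mock 2 and EDN1 4, the libraries lowest in the 49 genes. That sum was nearly all LYZ, at 779.6 CPM in mock 2 and 792.7 CPM in EDN1 4, so it describes 1 gene and not blood cells. The 7 fibroblast markers summed to 5.19 to 9.04 CPM and 4.31 to 7.71 CPM, with LUM at 0 in every library, and the 5 endothelial markers to at most 0.924 CPM, with KDR at 0. Their part in the member levels, and that of depth, was not tested. In bulk RNA, fewer dividing cells and less RNA of these genes per cell cannot be told apart.

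A few members were separated by library set. In CDC25C, PLK1, PTTG1 and BUB3 the second set lay below the first with no overlap. CDC25C held 31.9 to 53.9 CPM in the 5 libraries of the first set and 13.3, 16.2 and 11.3 CPM in mock 4, EDN1 3 and EDN1 4. PLK1 held 89.8 to 144.6 CPM in the first set and 52.2, 84.3 and 61.7 CPM in the second. Mock 2 was the lowest library of the first set in both genes, yet above all of the second. PTTG1 had means of 202.9 ± 28.95 CPM over the first set (SD, n = 5) and 108.4 ± 5.32 CPM over the second (SD, n = 3), and BUB3 of 311.0 ± 19.4 CPM and 204.2 ± 2.82 CPM (SD, n = 5 and 3). In BUB3 mock 2 was the highest of the 8 libraries. BUB1 and ECT2 had the reverse order, with the second set above the first. Their means were 9.61 ± 1.43 CPM and 17.2 ± 4.58 CPM for BUB1, and 22.8 ± 2.72 CPM and 27.3 ± 1.58 CPM for ECT2 (SD, n = 5 and 3). Sets lay apart in 4 of 49 genes with the second set lower, against 13.4% of all genes, and in 2 of 49 with it higher, against 9.83%. Both shares were smaller than those of all genes, so this separation was not particular to the members. Since the same counts had defined the sets, these values are a description with no test.

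**Figure D4:**
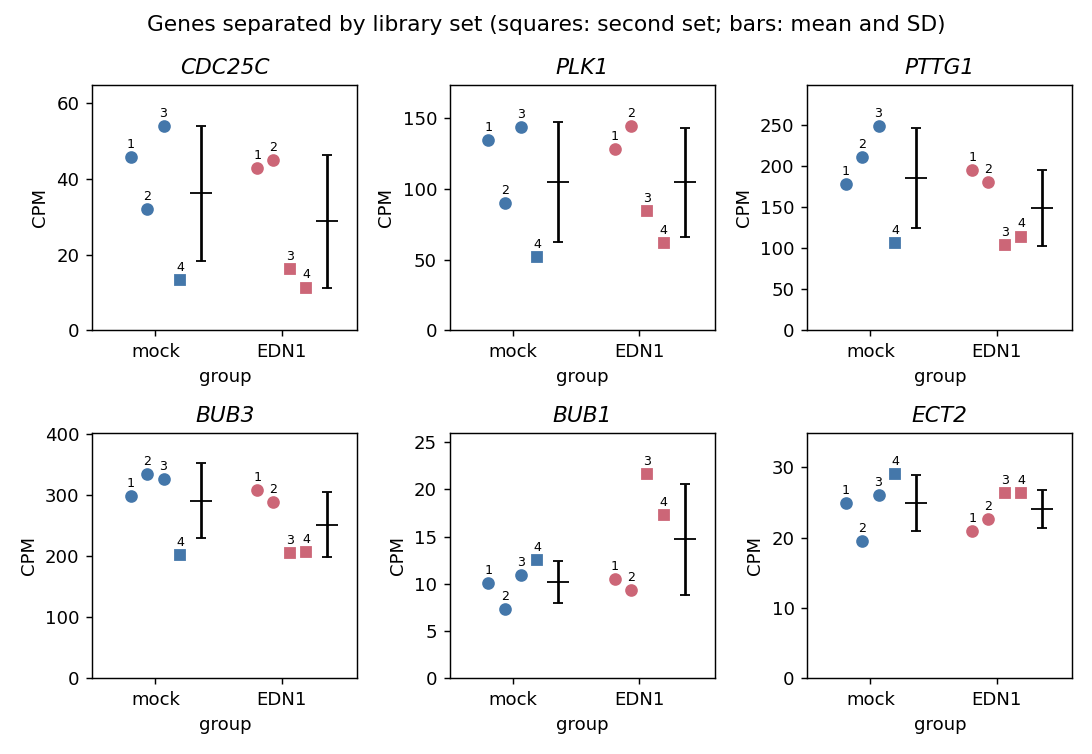
CPM of CDC25C, PLK1, PTTG1, BUB3, BUB1 and ECT2 in each library (points, numbered by replicate, squares for mock 4, EDN1 3 and EDN1 4), with the mean and SD of each group of 4. The squares lie below all circles in the first 4 genes and above all circles in BUB1 and ECT2.

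Fold changes were also taken inside each set. In the first set, 39 of 49 log2 values were above 0 with a median of 0.15, and in the second, which has 1 mock library, 44 of 49 with a median of 0.21. PLK1 was 0.15 in the first set and 0.47 in the second, against -0.0038 over all libraries. Mock 2 is 1 of 3 mock libraries of the first set, so its low level enters that value too. The second set, with 1 library against 2, is too small for its test to say anything of the members.

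Other cell cycle genes were compared in the same way. Of 72 other mitosis genes, 70 were tested, 0 passed in either direction, and 47 had a fold change above 0 with a median log2 value of 0.048, which became 27 and -0.041 without mock 2. FAM64A, a late mitotic gene, had overlapping groups (log2 fold change 0.54, SE 0.25). ANAPC10, a subunit of the anaphase-promoting complex, had 10.7, 9.76, 12.1 and 10.99 CPM in mock libraries and 8.70, 8.62, 7.54 and 8.89 CPM in EDN1 libraries (log2 fold change -0.37, SE 0.17). Every EDN1 library lay below every mock library in this 1 gene of the 70, against 0.668% of all genes tested. Of 45 genes of G1/S and replication, 0 passed and 34 had a fold change above 0, with a median log2 value of 0.14 that was 0.098 without mock 2 and 0.011 without EDN1 1. SLBP, which binds histone mRNA (log2 fold change 0.37, SE 0.15), and GMNN, which blocks repeated replication (log2 fold change 0.40, SE 0.21), had overlapping groups.

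Of the 22 genes of the DREAM and MuvB complexes and of cell cycle inhibitors, 21 were tested, 0 passed and 11 had a fold change above 0, with a median log2 value of 0.0057. CDKN3, a phosphatase that acts on cyclin-dependent kinases, had 7.96, 4.45, 6.03 and 7.81 CPM in mock libraries and 13.3, 8.05, 13.7 and 7.97 CPM in EDN1 libraries. Every EDN1 library lay above every mock library, though EDN1 4 and EDN1 2 exceeded mock 1 only slightly (log2 fold change 0.71, SE 0.27). CDKN3 was the 1 such gene of the 21, against 1.38% of all genes tested. CDKN1A, the inhibitor p21, had means of 152.3 ± 7.84 CPM for mock and 176.3 ± 17.5 CPM for EDN1 (SD, n = 4 each; log2 fold change 0.21, SE 0.13). In mock 2 the median centred log2 level was -0.495 for the other mitosis genes, -0.25 for G1/S and replication and -0.23 for the DREAM, MuvB and inhibitor list, against -0.62 for the 49. In EDN1 4 the values were -0.44, -0.505 and -0.093, against -0.36.

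**Figure D5:**
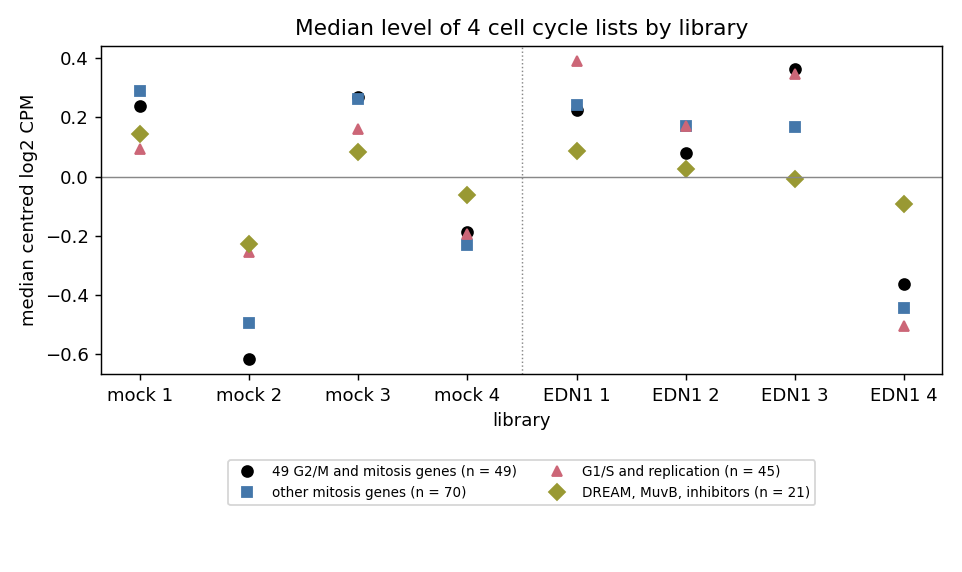
Median over each list of the centred log2 CPM, by library (circles for the 49 genes, squares for other mitosis genes, triangles for G1/S and replication, diamonds for the DREAM, MuvB and inhibitor list). Mock 2 is lowest for the 49 genes and EDN1 4 lowest for G1/S and replication, while the diamonds stay between -0.23 and 0.15.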

How the data were processed

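Raw counts of reads per gene were deposited as 1 table for the 8 libraries. Per the labels' protocols the libraries were made with a Lexogen QuantSeq kit, and per the submitters' processing notes Bowtie2, edgeR and build hg19 were used. For versions, the counting tool and strand, the entry is "not given in the sources used here". Groups came from the sample titles, and no label says that libraries of 1 group are separate cultures, so the tests see only library-to-library spread, which may be technical.

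Rows of 1 symbol were summed, giving 24462 genes from 25737 rows. Rows of MARCH1 and of MARCH2 were not summed. Genes passing edgeR's filterByExpr (minimum count 10), 12577 in all, were scaled by TMM and fitted with the quasi-likelihood test of edgeR 4.0.16 in R 4.3.3, the group being the only term. Benjamini-Hochberg adjustment ran over all genes tested, with a threshold of 0.05. Each standard error is the log2 fold change over the root of its F value. CPM values use TMM-scaled library totals. Centred levels are log2 CPM (prior count 2) minus the gene's mean over the 8 libraries. Scripts were tested on simulated counts with known changes. The pass mark for recovery was set at 8-fold changes, so it does not speak to differences as small as those of the members. No 2 libraries matched within sampling noise (chi-square over degrees of freedom 6.49 to 92.7). By this measure mock 4 and EDN1 4 lay 15.2 apart, while EDN1 3 lay 43.5 from mock 4 and 59.8 from EDN1 4. EDN1 3 lay 43.2 from EDN1 1 and 57.8 to 89.1 from the rest of the first set, so the second set was not uniform.

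Alternatives were other scalings and filters, DESeq2 1.42.0, limma voom (limma 3.58.1), the replicate number as a block, the library set, rows kept as deposited, a threshold of 0.01 and leaving out each library. The members and lists were chosen with earlier results of these data known. Full statistics are given for the 3 members of each role with the smallest unadjusted p, which favours large fold changes, and for CCNB1, CDK1, PLK1, AURKB, MKI67 and TOP2A. Other members are given by range and count, or by values where they are extreme in their role. Outside the 49, the 2 genes of each cell cycle list with the smallest unadjusted p are named.

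Promoter sequences are RefSeq's, GRCh38.p14, matched by symbol for 42 of 49 members. The end of 48 of 53 member windows was found in a GENCODE transcript of the same gene on the given strand, and 0 on the other. AURKA, BUB3, TTK, BIRC5, TPX2, UBE2C and FOXM1 had no entry.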

Additional observations from a re-analysis of the deposited data

Results flagged for a closer look

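Of the 98 groups of 4 libraries checked over the 49 genes, 3 held a library far from the other 3, where chance flags about 1 group in 20. CDK1 stood at 122.7 CPM in EDN1 3, against 89.3 to 92.3 CPM in the other EDN1 libraries. KIF20B, a mitotic kinesin gene, stood at 73.5 CPM in EDN1 3, against 47.0 to 47.7 CPM. KIF11, the motor that pushes the spindle poles apart, stood at 9.82 CPM in EDN1 4, against 18.8 to 19.5 CPM.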

How the results depend on the processing

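Under the 20 alternatives beside the threshold, 0 of the 49 genes passed, and 20 of the 49 kept the sign of their fold change in every one. Over all genes 1 was called in each of them but DESeq2, which called 3. The number of members at an unadjusted p under 0.05, 1 in all 8 libraries, was 0 in the first and in the second library set alone (2.52% and 0.344% of all genes) and 0 to 3 when single libraries were left out (1.46% to 5.76% of all genes). The replicate block gave 3, with 4.37% of all genes (UBE2C, BUB1 and TOP2A, chosen after their values were seen). The labels do not say whether the numbers pair the libraries. Same-numbered deviations correlated at 0.48, 0.15, -0.15 and 0.53, and the other pairs at -0.65 to 0.52, which does not settle it. The block left the number of genes called at 1. With EDN1 the only call of the main fit, that number does not bear on pairing. Members with a negative fold change, 12 in all libraries, were 5 in the second set alone and 6 (without EDN1 4) to 27 (without mock 2) when single libraries were left out. Members whose groups do not overlap, 1 in all, were 2 with library totals only (CDC25B and NEK2, against 2.23% of all genes) and 1 to 2 when libraries were left out (2.88% to 6.54% of all genes).

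Some signs turned, and for these the cause was not tested. PLK1, at -0.0038, was 0.00094 with upper quartile scaling, 0.00099 with the stricter filter, 0.038 with library totals only, 0.026 in limma voom, 0.022 with the block, 0.27 with the library set as a term, 0.15 and 0.47 in the first and second sets, and -0.23 to 0.19 when libraries were left out. CDK1 was -0.025 in the first set and -0.12 to 0.17 when libraries were left out. In the second set FZR1 was 0.0065 and PTTG1 0.034. The ranges without single libraries were -0.057 to 0.35 for AURKB, -0.067 to 0.39 for KIF20A and -0.013 to 0.26 for HMMR. In the second set mock has 1 library, whose spread is taken to equal that of EDN1.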
